A study of Mus musculus with 16 samples.

Results

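The genes described here are 31 genes of the oligodendrocyte lineage and of myelin, chosen by name with earlier results of these data known. All 31 were found among the 49671 gene rows of the count table and entered the tests. They were read in bulk RNA of the hippocampus of 8-month-old female mice, in 4 genotypes of 4 libraries each. The PS19_p16KO mice carried the PS19 tau transgene together with a knockout of p16, the PS19 mice carried the transgene with p16 intact, the p16KO mice lacked p16 without the transgene, and the WT mice had neither change. PS19 mice express a disease-linked mutant human tau from the mouse prion protein promoter and develop neurofibrillary tau pathology with age. The labels do not give the type of the p16 knockout allele, the strain background, or which libraries came from separate animals, so each p-value reflects only how these libraries vary, which may be technical in part.

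Oligodendrocytes wrap axons of the central nervous system in myelin. They arise from proliferating precursors that carry the receptor PDGFRA, pass through a short-lived newly formed stage, and then switch on myelin proteins and the enzymes of myelin lipids under the transcription factors SOX10 and MYRF. In the hippocampus, most myelin lies in the fibre tracts that border and cross the tissue. The 31 genes were divided by role into 4 precursor and newly formed genes (Pdgfra, Gpr17, Bcas1, Enpp6), 3 transcription factors of the whole lineage (Olig1, Olig2, Sox10) and 24 genes of mature cells. The mature genes were 14 of the myelin membrane and structure, 5 enzymes of lipids and metabolites, 2 transcription factors and 3 secreted or stress-linked genes. In bulk tissue, fewer cells of a type and less RNA per cell cannot be told apart.

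The libraries held 18485552 to 22311322 counts in gene rows. Cdkn2a, the gene that encodes p16 along with another product, was barely detected, with 2 counts in all in PS19_p16KO, 18 in PS19, 3 in p16KO and 8 in WT, so it checks the knockout label only weakly. Levels are given as CPM, a gene's count relative to the gene counts of its library after each library's size was adjusted by its own TMM factor. The summed level of 6 defining markers of the oligodendrocyte lineage was 1382 to 1754 CPM in PS19_p16KO, 1421 to 1885 CPM in PS19, 1361 to 1470 CPM in p16KO and 1038 to 1530 CPM in WT libraries. These 6 (Mog, Mag, Mbp, Olig2, Sox10 and Pdgfra) are all members, so their sum is no outside check on the members. Mbp made up most of it, with 1371 of 1754 CPM in PS19_p16KO 4 and 773 of 1038 CPM in WT 2. The summed level of 7 choroid plexus genes was 5768 CPM in PS19_p16KO 3, 3422 CPM in p16KO 4 and 861.5 CPM in WT 1, against 36.4 to 202 CPM in the other 13 libraries. Markers of Schwann cells, which make peripheral myelin, summed to at most 3.46 CPM in any library, and Pmp2 among them had no count in any library. The libraries that led for the members also had the highest sum of 7 markers of the thalamus next to the hippocampus in their group, at 126 CPM in PS19_p16KO 4, 132 CPM in PS19 2, 121 CPM in p16KO 2 and 131 CPM in WT 1. PS19_p16KO 3, the lowest of its group for 23 members, had the lowest sum (93.5 CPM), whereas WT 2, the lowest WT library for 18 members, had 129 CPM. The sum of 5 markers of striatum and septum was highest in WT 1 (228 CPM), PS19_p16KO 3 (218 CPM) and PS19 2 (215 CPM), against 128 to 191 CPM in the other 13 libraries. The part of neighbouring tissue in the levels of the members was not tested.

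The promoters of 5 genes are shown for the members on which the comparisons turn. Sirt2 was the member that passed the test, Opalin had the lowest p-values when both genotypes were averaged, Cnp and Mag are the members whose window held a MYRF motif, and Pdgfra is the precursor gene with nearly equal levels in PS19, p16KO and WT. Each is the 250 bases before the RefSeq transcription start on GRCm38.p6, written 5′ to 3′ on the strand of the gene. Capitals mark exact matches on either strand to CTGGCAC, a form of the MYRF motif, or to ACAAAG, a core of the SOX family motif (CTTTGT on the opposite strand). The windows lie at chr7:28766502-28766751 (Sirt2, plus strand), chr19:41077114-41077363 (Opalin, minus strand), chr11:100574689-100574938 (Cnp, plus strand), chr7:30914923-30915172 (Mag, minus strand) and chr5:75152001-75152250 (Pdgfra, plus strand).
Sirt2: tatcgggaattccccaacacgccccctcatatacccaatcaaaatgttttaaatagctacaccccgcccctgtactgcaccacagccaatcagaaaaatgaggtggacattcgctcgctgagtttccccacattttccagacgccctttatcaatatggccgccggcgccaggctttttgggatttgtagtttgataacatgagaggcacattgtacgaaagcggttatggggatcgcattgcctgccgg
Opalin: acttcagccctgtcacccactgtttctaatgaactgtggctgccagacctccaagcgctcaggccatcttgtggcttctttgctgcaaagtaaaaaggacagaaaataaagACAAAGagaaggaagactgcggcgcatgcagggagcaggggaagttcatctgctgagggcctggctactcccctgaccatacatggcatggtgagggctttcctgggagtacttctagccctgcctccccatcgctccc
Cnp: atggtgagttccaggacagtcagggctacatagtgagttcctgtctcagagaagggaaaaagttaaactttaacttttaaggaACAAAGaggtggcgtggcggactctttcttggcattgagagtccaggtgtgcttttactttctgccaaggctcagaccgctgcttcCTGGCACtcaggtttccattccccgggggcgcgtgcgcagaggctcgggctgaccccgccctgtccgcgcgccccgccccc
Mag: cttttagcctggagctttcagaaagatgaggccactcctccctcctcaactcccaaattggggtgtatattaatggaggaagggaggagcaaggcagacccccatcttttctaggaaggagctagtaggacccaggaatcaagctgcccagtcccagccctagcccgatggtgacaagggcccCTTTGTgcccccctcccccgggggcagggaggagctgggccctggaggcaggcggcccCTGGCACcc
Pdgfra: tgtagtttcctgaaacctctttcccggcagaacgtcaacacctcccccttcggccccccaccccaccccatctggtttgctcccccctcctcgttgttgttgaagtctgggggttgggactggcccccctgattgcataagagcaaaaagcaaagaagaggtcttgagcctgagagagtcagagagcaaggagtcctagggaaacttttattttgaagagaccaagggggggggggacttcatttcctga

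In Cnp, the SOX motif began 167 bases and the MYRF motif 81 bases before the start. In Mag, the SOX motif lay 67 bases and the MYRF motif 9 bases before the start. Opalin had a SOX motif 139 bases before the start, and the Sirt2 and Pdgfra windows held neither run of letters. RefSeq promoters were found for 24 of the 31 members, in 36 windows. The MYRF motif was present in 3 of these windows (8.33%), of which 2 are overlapping Mag windows, against 4.19% of 32851 mouse promoters of the same length. The SOX motif was present in 11 of the 36 windows (30.6%), against 16.5% of all promoters, and the Mobp window alone held 6 matches. These 11 windows count 1 site in both overlapping Mag windows, and they include 2 windows of Gjb1. A match in so short a window is a description of the letters and not evidence of binding, and the motifs did not overlap in any window shown.

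The levels of the members spanned a wide range. Divided by exon length, and averaged over all 16 libraries, the highest was Mbp, which encodes the main cytoplasmic protein of compact myelin, at 133 CPM per kb. Cnp, the 2',3'-cyclic nucleotide phosphodiesterase of non-compact myelin, followed at 75.4 CPM per kb. The proteolipid gene Mal (67.1), the pleckstrin-domain gene Plekhb1 (62.5), the tight-junction gene Cldn11 (62.2) and Olig1 (62.0 CPM per kb) lay close together. Their group SDs were 1.05 to 13.3 CPM per kb, so these neighbours cannot be ordered. The precursor gene Pdgfra stood at 6.78 CPM per kb, Gpr17 at 8.28 CPM per kb and Bcas1 at 20.4 CPM per kb. At the bottom were Enpp6 at 0.918 CPM per kb and the protease gene Klk6 at 0.697 CPM per kb, where Klk6 rests on 9 to 67 counts per library.

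**Figure D1:**
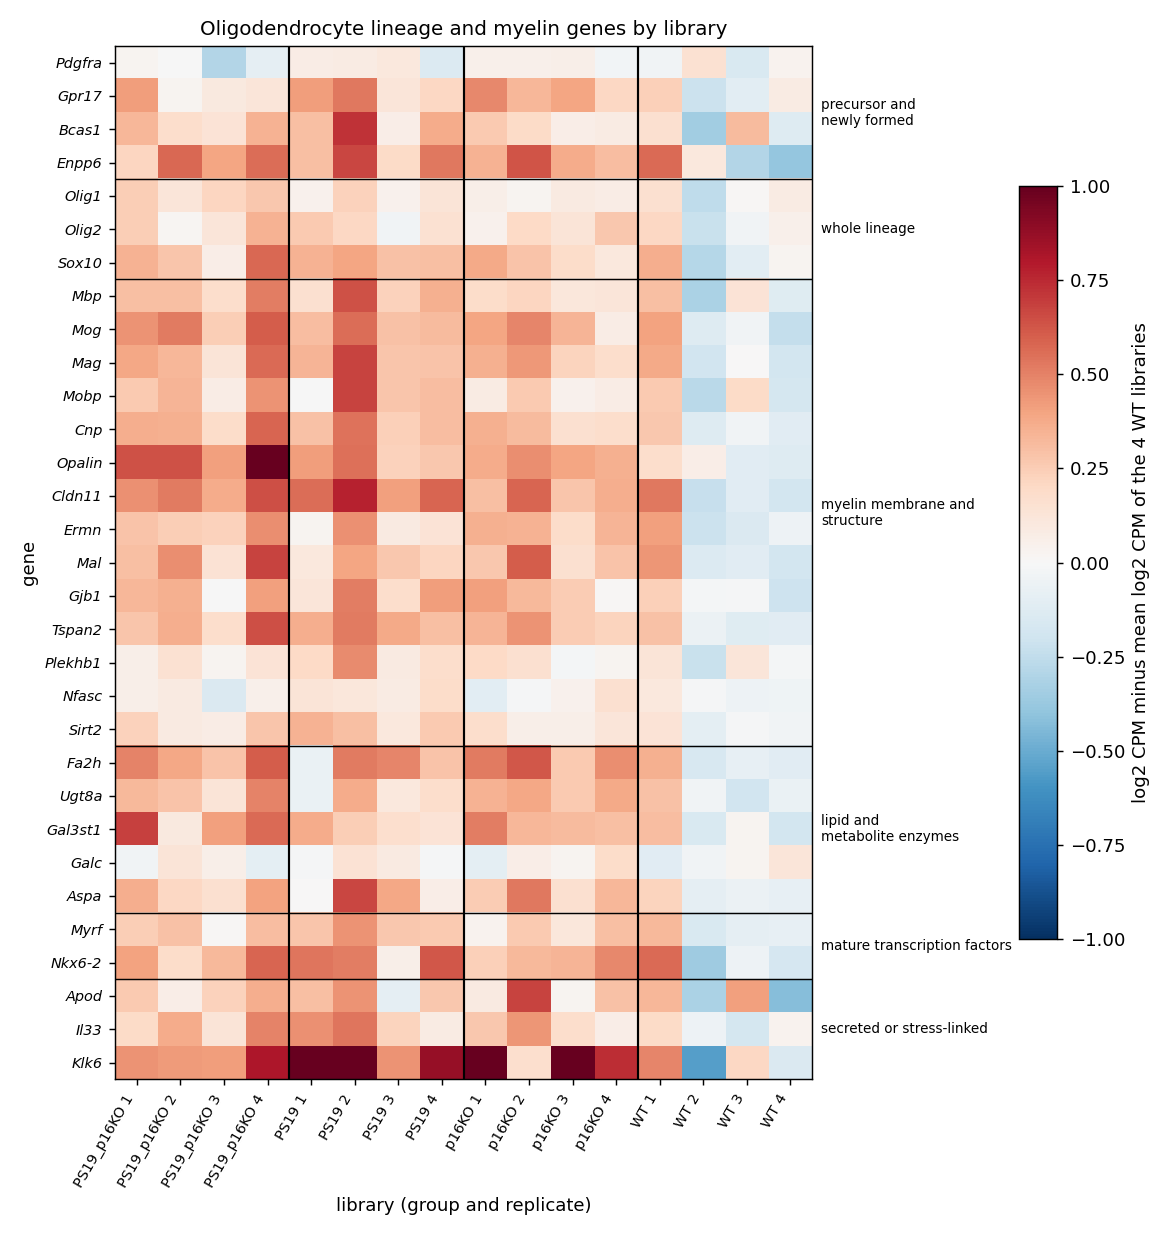
Level of each of the 31 genes (rows, grouped by role) in each of the 16 libraries (columns), as log2 CPM minus the mean log2 CPM of the 4 WT libraries, with colours capped at 1 in either direction. WT 2, WT 3 and WT 4 are mostly blue while WT 1 resembles the libraries of the other groups, and Pdgfra, Galc and Nfasc, in contrast with most rows, show little colour.

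The comparison of PS19 with WT asks what the tau transgene does to these genes with p16 intact. All 31 members had a positive log2 fold change, against 48.3% of the 16372 genes tested. The median was 0.31 on the log2 scale, against -0.0051 over all genes tested. Many members shared the same high or low libraries, as WT 1 was the highest WT library for 27 of the 31. Their directions are therefore not independent of one another, here and in the comparisons below, and a count of directions is no test. Only 1 member, Sirt2, passed edgeR's quasi-likelihood test with Benjamini-Hochberg adjustment over all tested genes, against a background of 1.61% of all tested genes called (1.56% higher, 0.0550% lower). At an unadjusted p under 0.05, 22 members were higher and 0 lower, against 9.57% of all tested genes (6.80% higher, 2.77% lower). The 4 PS19 and 4 WT libraries did not overlap for 2 members, Opalin and Tspan2, against 3.57% of all tested genes without overlap and higher and 1.46% lower. The unadjusted count was 12 without PS19 2, 14 without WT 2 and 14 without WT 4, and no member had a negative fold change when any of these 3 libraries was left out. For fits that left out a library, the share of all tested genes at this threshold was not computed, here or below. With all libraries, 264 genes were called in all. The adjusted count of members was 9 without WT 1, of 263 genes called. It was 3 of 259 without PS19_p16KO 4 (Opalin, Tspan2 and Sirt2) and 2 of 438 without PS19 3 (Sirt2 and Klk6). It was 0, of 124 to 246 genes called, in 11 of the 16 fits that left out 1 library. These were the fits without PS19_p16KO 1, PS19 1, 2 or 4, any p16KO library, or WT 2, 3 or 4.

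Among the precursor and newly formed genes, Pdgfra, the receptor that defines precursors, had 71.7, 72.1, 73.1 and 61.9 CPM in PS19 and 66.6, 75.5, 61.4 and 69.7 CPM in WT libraries. Both groups covered nearly the same range, and the log2 fold change was 0.03 ± 0.07 (SE; edgeR's quasi-likelihood test, adjusted p = 0.959; 95% interval -0.12 to 0.18). Gpr17, a receptor of cells committed to differentiate, had 49.2, 53.1, 40.1 and 42.5 CPM in PS19 and 43.4, 31.8, 34.3 and 38.9 CPM in WT libraries. Its highest WT library lay above the lower 2 PS19 libraries, and the log2 fold change was 0.32 ± 0.11 (adjusted p = 0.227, same test). Bcas1, which marks newly myelinating cells, averaged 87.0 ± 17.0 CPM in PS19 and 67.7 ± 13.6 CPM in WT libraries (SD, n = 4 each). Enpp6, a choline phosphodiesterase of newly forming oligodendrocytes, averaged 6.25 ± 0.935 CPM in PS19 and 4.80 ± 1.52 CPM in WT libraries, and for both genes the groups overlapped.

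Of the 3 lineage transcription factors, Sox10 alone had an unadjusted p under 0.05, and it was higher in PS19 (6.80% of all tested genes were higher at this threshold). Olig2, needed to specify the lineage, had 36.2, 35.0, 29.5 and 33.6 CPM in PS19 and 34.9, 26, 29.6 and 31.3 CPM in WT libraries. The lowest PS19 library was under 3 of the 4 WT libraries, and the log2 fold change of 0.14 ± 0.09 did not pass (edgeR's quasi-likelihood test, adjusted p = 0.696). Its paralogue Olig1, which promotes maturation, averaged 135 ± 8.60 CPM in PS19 and 126 ± 14.96 CPM in WT libraries. Sox10, which drives myelin genes at each stage, averaged 60.2 ± 1.98 CPM in PS19 and 48.4 ± 9.46 CPM in WT libraries (SD, n = 4 each). All 4 PS19 libraries of Sox10 lay above WT 2, WT 3 and WT 4, while WT 1 exceeded all of them but PS19 2, and the log2 fold change was 0.32 ± 0.12 (adjusted p = 0.306, same test).

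Of the 14 myelin membrane and structure genes, 12 were higher at an unadjusted p under 0.05, 1 passed after adjustment, and the median log2 fold change was 0.33. Of all tested genes, 6.80% were higher at the unadjusted threshold and 1.56% after adjustment. Cldn11, whose product seals the layers of myelin, had 131, 151, 117 and 133 CPM in PS19 and 128, 75.4, 81.9 and 77.8 CPM in WT libraries. WT 1 alone reached the PS19 range, and the log2 fold change was 0.55 ± 0.15 (edgeR's quasi-likelihood test, adjusted p = 0.0934). Tspan2, a tetraspanin of myelin, had 124, 139, 126 and 119 CPM in PS19 and 118, 92.8, 88.9 and 89.5 CPM in WT libraries. Its groups did not overlap, by a gap of under 1 CPM between PS19 4 and WT 1, and the log2 fold change was 0.38 ± 0.10 (adjusted p = 0.0734, same test).

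Mbp had 1076, 1494, 1129 and 1234 CPM in PS19 and 1184, 773, 1057 and 887 CPM in WT libraries. PS19 2 was highest and WT 2 lowest, the groups overlapped, and the log2 fold change was 0.34 ± 0.12 (edgeR's quasi-likelihood test, adjusted p = 0.281). Opalin, a small transmembrane protein found in oligodendrocytes, had 17.2, 18.8, 15.1 and 15.5 CPM in PS19 and 14.5, 13.5, 11.9 and 11.8 CPM in WT libraries. Every PS19 library was above every WT library, with a log2 fold change of 0.37 ± 0.11 (adjusted p = 0.124, same test). The other members of this class ranged from 0.13 for Nfasc, a cell adhesion gene of paranodes that neurons also express at the axon initial segment, to 0.39 for Mag, the adhesion protein of the innermost myelin layer. Mog, a surface protein of the outermost myelin, averaged 38.3 ± 3.60 CPM in PS19 and 30.01 ± 6.26 CPM in WT libraries, and Mobp, a basic protein of compact myelin, averaged 378 ± 74.2 CPM in PS19 and 304 ± 54.9 CPM in WT libraries. None of these genes separated the groups completely. Cnp averaged 293 ± 28.9 CPM in PS19 and 231 ± 31.2 CPM in WT libraries, and the gap-junction gene Gjb1 12.04 ± 1.58 CPM in PS19 and 9.72 ± 1.25 CPM in WT libraries. Ermn, a cytoskeletal gene of oligodendrocytes, and Mal were the 2 of the 14 that missed an unadjusted p of 0.05.

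Sirt2, a deacetylase that is abundant in myelin, rose in PS19. It had 129, 125, 108 and 121 CPM in PS19 and 111, 94.7, 100.2 and 98.8 CPM in WT libraries. PS19 3 lay below WT 1, so the groups overlapped, and the log2 fold change was 0.26 ± 0.06 (edgeR's quasi-likelihood test, adjusted p = 0.0399). The exons of Sirt2 overlap those of Nfkbib on the opposite strand. No source used here says whether the authors' counting used strand, and without strand the reads of this pair cannot be told apart. Nfkbib itself had a log2 fold change of 0.12 (adjusted p = 0.74, same test). In all, 11 members share exon positions with another gene. The same limit applies to Pdgfra, Gpr17, Bcas1, Olig1, Cnp, Ermn, Tspan2, Galc and Nkx6-2, and Mobp overlaps a gene on its own strand. The call on Sirt2 was lost with only the PS19 and WT libraries in the fit (adjusted p = 0.118), under limma-voom (0.0654), where Cldn11 was called instead, and without any one of PS19_p16KO 1, PS19 1, 2 or 4, the 4 p16KO libraries, or WT 2, 3 or 4 (0.0533 to 0.222), while its log2 fold change stayed between 0.22 and 0.30.

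**Figure D2:**
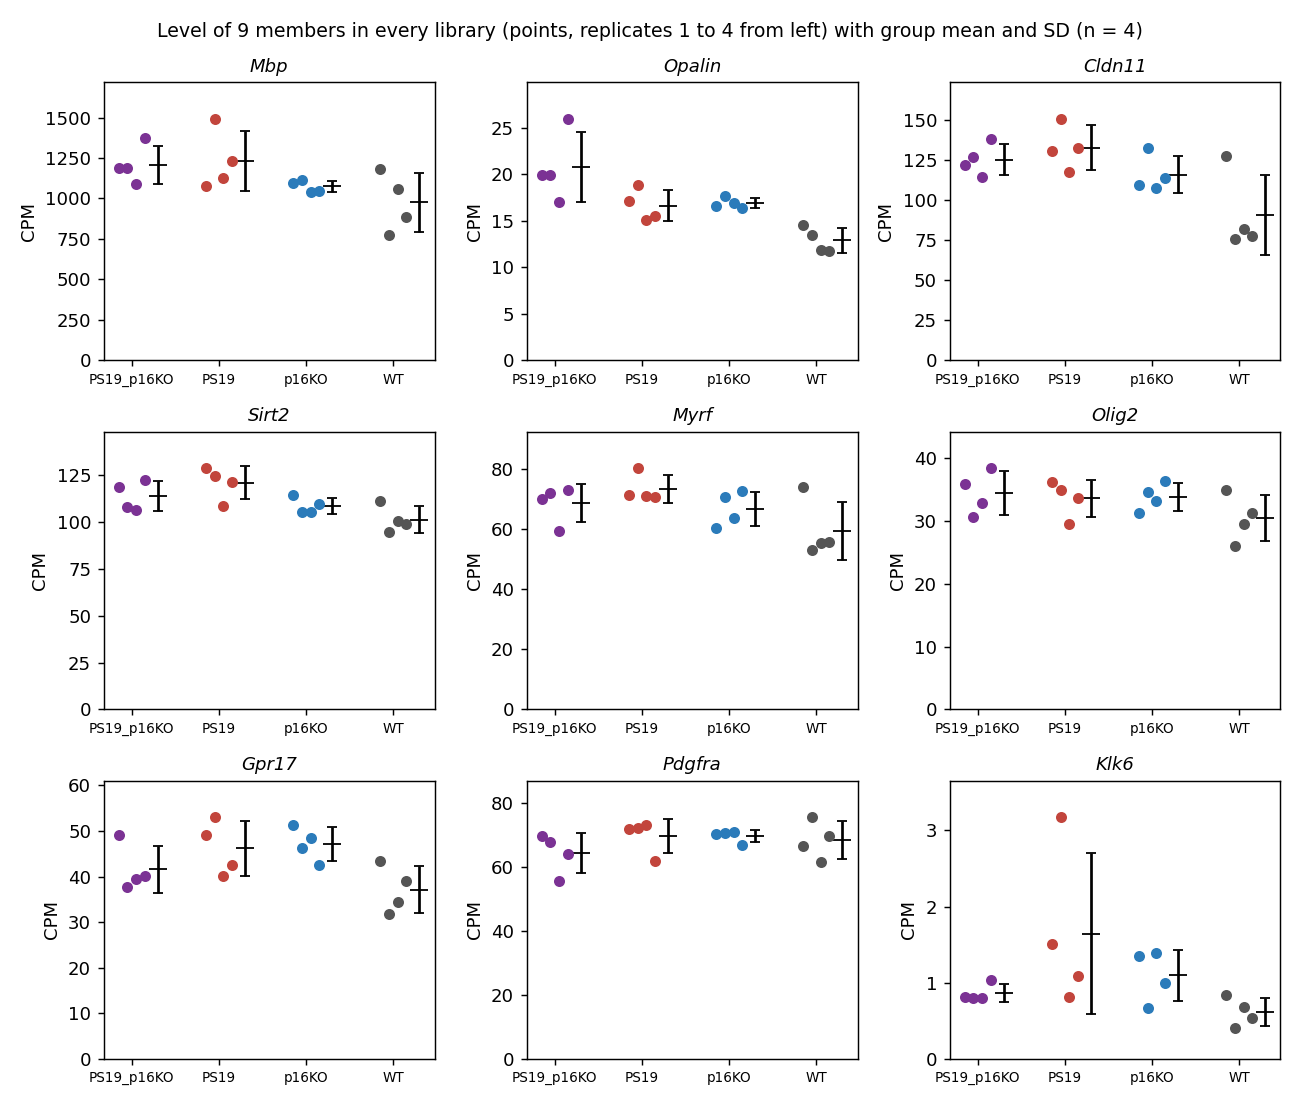
CPM of 9 members in every library (points, replicates 1 to 4 from left in each group) with the group mean and SD (n = 4). Opalin has no WT library as high as any other library, WT 1 stands apart from WT 2, 3 and 4 in Cldn11 and Myrf, and Pdgfra has nearly the same range in PS19 and WT.

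The 5 enzymes were less uniform. Fa2h, which hydroxylates the fatty acids of myelin lipids, averaged 31.7 ± 5.60 CPM in PS19 and 25.6 ± 4.53 CPM in WT libraries (SD, n = 4 each). Ugt8a, which makes galactosylceramide, averaged 35.6 ± 4.44 CPM in PS19 and 32.2 ± 4.77 CPM in WT libraries, and Gal3st1, which turns it into sulfatide, averaged 7.95 ± 0.595 CPM in PS19 and 6.83 ± 1.12 CPM in WT libraries. The groups overlapped for all 3. Aspa, which splits N-acetylaspartate, averaged 11.3 ± 2.48 CPM in PS19 and 9.17 ± 1.004 CPM in WT libraries. Galc, the lysosomal enzyme that degrades galactosylceramide and is not restricted to oligodendrocytes, averaged 27.7 ± 1.53 CPM in PS19 and 26.7 ± 1.88 CPM in WT libraries. The 95% interval of its log2 fold change, -0.10 to 0.21, ended below the members' median of 0.31. The intervals of Pdgfra, Olig1 and Nfasc did so too, with upper ends of 0.18, 0.25 and 0.25. None of the 5 passed the test, and 2 of them, Fa2h and Aspa, were higher at an unadjusted p under 0.05, against 6.80% of all tested genes.

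Of the 2 mature transcription factors, Myrf, which activates myelin genes, had 71.5, 80.4, 71.2 and 70.6 CPM in PS19 and 73.9, 53.2, 55.3 and 55.6 CPM in WT libraries. WT 1 was above 3 of the 4 PS19 libraries while the other WT libraries were below all of them, and the log2 fold change was 0.30 ± 0.09 (edgeR's quasi-likelihood test, adjusted p = 0.158). Nkx6-2, a homeobox factor of maturing oligodendrocytes, averaged 13.8 ± 2.24 CPM in PS19 and 10.4 ± 3.14 CPM in WT libraries (SD, n = 4 each). Klk6, a secreted protease, had 1.51, 3.18, 0.809 and 1.09 CPM in PS19 and 0.833, 0.405, 0.685 and 0.536 CPM in WT libraries. PS19 2 stood above all other libraries and PS19 3 was below WT 1, and the log2 fold change was 1.43 ± 0.38 (adjusted p = 0.0669, same test). The alarmin Il33 averaged 59.1 ± 8.49 CPM in PS19 and 47.1 ± 4.99 CPM in WT libraries, and Apod, a secreted lipid carrier, 71.1 ± 10.7 CPM in PS19 and 61.9 ± 18.2 CPM in WT libraries, with overlap in both.

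Loss of p16 without the tau transgene was compared next. All 31 members had a positive log2 fold change in p16KO against WT, against 49.7% of all tested genes, with a median of 0.25. No member passed edgeR's quasi-likelihood test after adjustment, and the background was also 0.00%. At an unadjusted p under 0.05, 13 members were higher and 0 lower, against 3.99% of all tested genes (2.11% higher, 1.88% lower). The groups did not overlap for 1 member, Opalin, against 1.62% of all tested genes without overlap and higher and 1.33% lower. This comparison uses the same 4 WT libraries as that of PS19 with WT, so the direction of the one is not independent of the other. The unadjusted count was 23 without WT 1, 8 without p16KO 1, 8 without p16KO 2, 7 without WT 3, and 5 without WT 2 or without WT 4.

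Opalin had 16.6, 17.7, 16.9 and 16.4 CPM in p16KO libraries, all above the WT maximum of 14.5 CPM, and its log2 fold change was 0.39 ± 0.11 (edgeR's quasi-likelihood test, adjusted p = 0.628). Fa2h had 36.3, 39.0, 30.4 and 34.9 CPM in p16KO and 32.3, 22.6, 23.96 and 23.4 CPM in WT libraries, a log2 fold change of 0.46 ± 0.13 (adjusted p = 0.689). Only WT 1 entered the p16KO range. Ugt8a had 40.8, 41.8, 38.5 and 41.6 CPM in p16KO and 39.1, 31.2, 28.1 and 30.6 CPM in WT libraries, a log2 fold change of 0.33 ± 0.10 (adjusted p = 0.729), and again WT 1 alone overlapped. Gpr17 had a log2 fold change of 0.35 ± 0.11 (adjusted p = 0.823). Mbp (0.14 ± 0.12), Myrf (0.17 ± 0.09), Olig2 (0.15 ± 0.09) and Pdgfra (0.03 ± 0.07) each had an adjusted p of 0.999 in the same test.

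**Figure D3:**
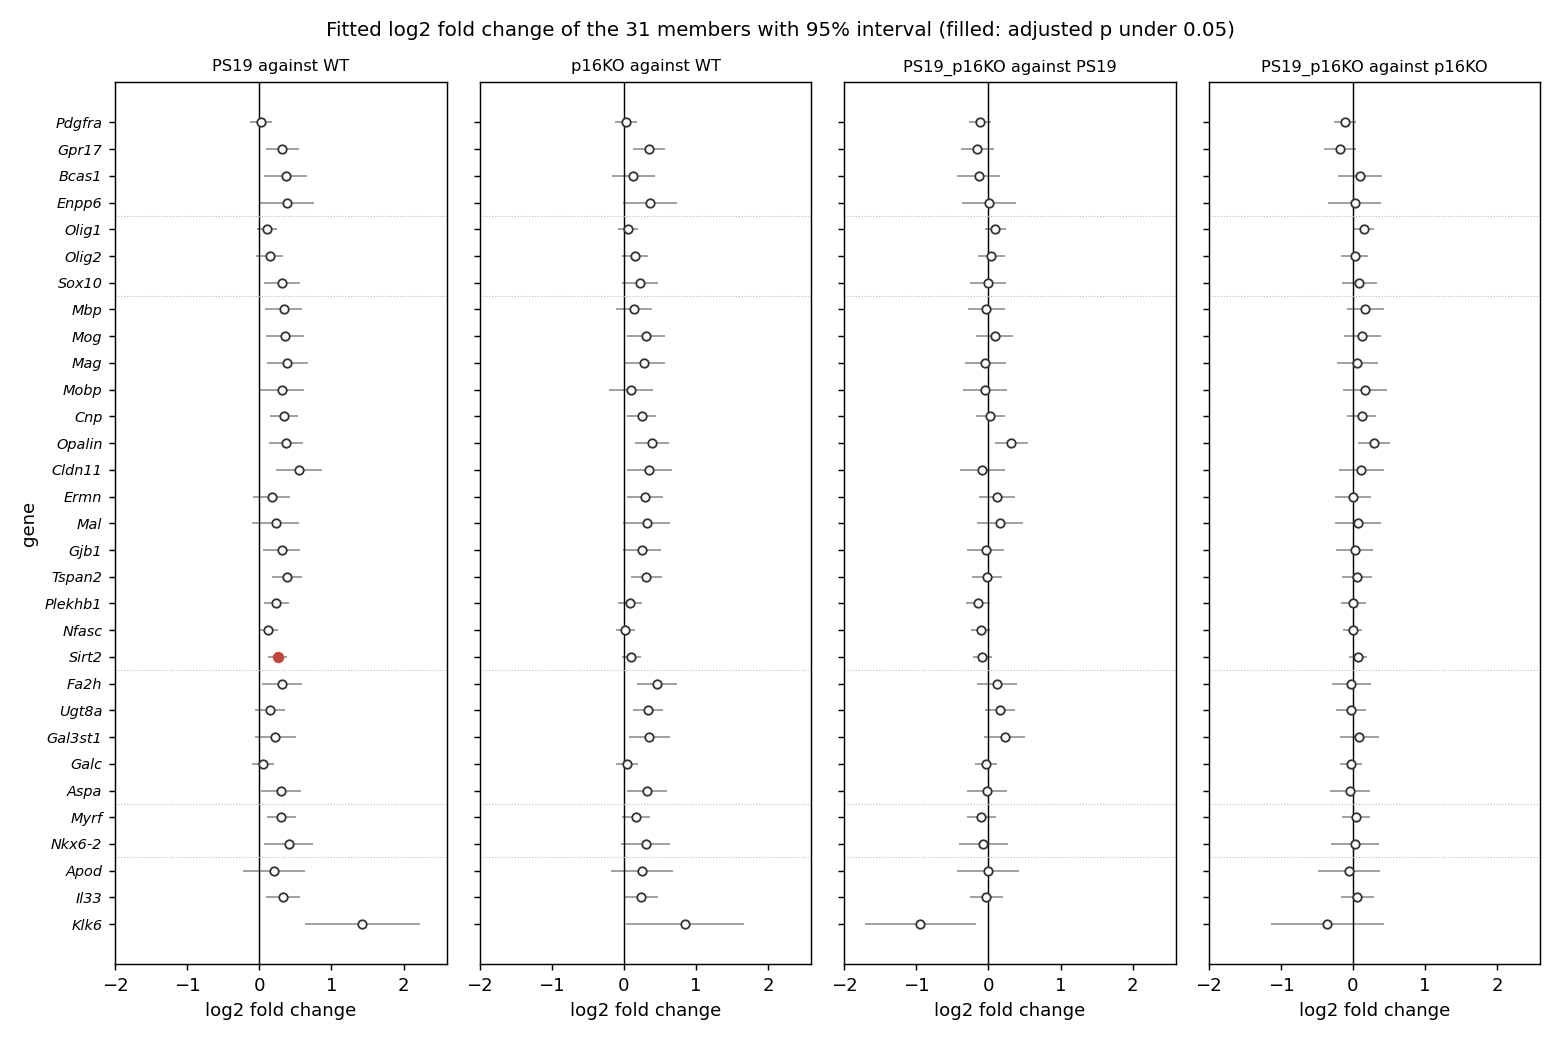
Fitted log2 fold change (x axis) of the 31 members with 95% intervals from edgeR's quasi-likelihood fit, for PS19 and for p16KO against WT, and for PS19_p16KO against each single mutant. All points lie to the right of 0 in the first 2 panels and around 0 in the last 2, and Sirt2 in PS19 against WT is the only filled point.

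In mice with the transgene, loss of p16 was tested by setting PS19_p16KO against PS19. The members showed no common direction. Of the 31, 11 had a positive log2 fold change, against 50.6% of all tested genes, and the median was -0.03. None passed edgeR's quasi-likelihood test after adjustment, against 0.825% of all tested genes called (0.0489% higher, 0.776% lower). At an unadjusted p under 0.05, where 8.59% of all tested genes passed, 1 member was higher (3.12% of all tested genes) and 1 lower (5.47%), and no member had groups without overlap (1.56% of all tested genes higher, 2.52% lower). Opalin had 19.98, 19.97, 17.1 and 26.02 CPM in PS19_p16KO and 17.2, 18.8, 15.1 and 15.5 CPM in PS19 libraries, a log2 fold change of 0.32 ± 0.11 (adjusted p = 0.268), and PS19_p16KO 3 was the library that overlapped. Klk6 had 0.810, 0.797, 0.794 and 1.04 CPM in PS19_p16KO and 1.51, 3.18, 0.809 and 1.09 CPM in PS19 libraries, a log2 fold change of -0.94 ± 0.37 (adjusted p = 0.384).

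In the same comparison the log2 fold changes were -0.11 ± 0.06 for Nfasc (adjusted p = 0.66) and -0.14 ± 0.08 for Plekhb1 (adjusted p = 0.681) in edgeR's quasi-likelihood test. For Mbp the value was -0.03 ± 0.12, with a 95% interval of -0.28 to 0.23. Myrf stood at -0.10 ± 0.09, Olig2 at 0.04 ± 0.09, Pdgfra at -0.12 ± 0.07 and Gpr17 at -0.15 ± 0.11, with adjusted p from 0.723 to 0.979 for these 5 genes. The number of members with a positive log2 fold change was 19 without PS19_p16KO 3, 21 without PS19 2 and 19 under limma-voom, so neither direction held throughout.

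The transgene was also compared in mice that lacked p16, as PS19_p16KO against p16KO. Of the 31 members, 21 had a positive log2 fold change, against 51.8% of all tested genes, with a median of 0.04, and none passed edgeR's quasi-likelihood test (0.0183% of all tested genes were called). Unadjusted p-values under 0.05 were found for 2 members, both higher, against 3.65% of all tested genes (1.86% higher, 1.79% lower). One of them was Opalin, with a log2 fold change of 0.29 ± 0.11 (adjusted p = 0.999). The other was Olig1, with 148, 136, 145 and 151 CPM in PS19_p16KO and 130.4, 127, 133 and 131 CPM in p16KO libraries, the 1 member whose groups did not overlap (1.68% of all tested genes higher, 1.12% lower), at a log2 fold change of 0.15 ± 0.07 (adjusted p = 0.999). Mbp stood at 0.17 ± 0.12, Myrf at 0.04 ± 0.09, Olig2 at 0.03 ± 0.09, Pdgfra at -0.12 ± 0.07 and Gpr17 at -0.18 ± 0.11, each with an adjusted p of 0.999. Without PS19_p16KO 4, 12 members had a positive log2 fold change, and without PS19_p16KO 3 there were 26.

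The interaction term asks whether the difference made by the transgene was itself different in mice lacking p16. It was positive for 1 of the 31 members, against 52.1% of all tested genes, and negative for 30, with a median log2 difference of -0.23, against a median of 0.0072 over all tested genes. No member passed edgeR's quasi-likelihood test (0.00611% of all tested genes were called), and 4 had an unadjusted p under 0.05, all lower, against 5.44% of all tested genes (1.28% higher, 4.16% lower). These 4 were Klk6 (-1.79 ± 0.54, adjusted p = 0.316), Gpr17 (-0.50 ± 0.15, adjusted p = 0.339), Tspan2 (-0.33 ± 0.14, adjusted p = 0.827) and Sirt2 (-0.19 ± 0.09, adjusted p = 0.907). The values were -0.17 ± 0.17 for Mbp, -0.08 ± 0.15 for Opalin, -0.27 ± 0.13 for Myrf, -0.12 ± 0.13 for Olig2 and -0.15 ± 0.10 for Pdgfra, with adjusted p from 0.956 to 0.999. The same WT libraries enter the term, and its unadjusted count was 17 without WT 1, 7 without PS19_p16KO 4 or PS19 3 or with a term for the library-name suffix, and 2 without PS19_p16KO 2, PS19_p16KO 3, PS19 2, WT 2 or WT 4.

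Averaged over both p16 genotypes, the transgene gave a positive log2 difference in 30 of 31 members (51.1% of all tested genes) with a median of 0.17, and 14 were higher at an unadjusted p under 0.05 (6.25% of all tested genes higher, 3.77% lower). None passed edgeR's quasi-likelihood test after adjustment, against 0.391% of all tested genes called (0.366% higher, 0.0244% lower). Opalin came closest (0.33 ± 0.08, adjusted p = 0.0632), followed by Sirt2 (0.16 ± 0.04, 0.14), Cnp (0.23 ± 0.07, 0.193) and Cldn11 (0.33 ± 0.10, 0.267). Mbp stood at 0.25 ± 0.09 (adjusted p = 0.312), Myrf at 0.17 ± 0.07 (0.397), Olig2 at 0.08 ± 0.06 (0.717), Gpr17 at 0.07 ± 0.08 (0.837) and Pdgfra at -0.04 ± 0.05 (0.85). The unadjusted count was 23 without WT 1, 9 without PS19_p16KO 4 and 8 without PS19 2. One member was called without PS19_p16KO 3 (Opalin, of 34 genes called in all) and without WT 1 (Cldn11, of 34). Without PS19 3, 2 were called (Opalin and Sirt2, of 206), against 64 genes called with all libraries.

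Averaged over both PS19 genotypes, loss of p16 gave a positive log2 difference in 26 of 31 members (49.2% of all tested genes) with a median of 0.11, and 7 were higher at an unadjusted p under 0.05 (7.96% of all tested genes, 3.52% higher and 4.44% lower). After adjustment none passed edgeR's quasi-likelihood test, against 0.226% of all tested genes called (0.0977% higher, 0.128% lower). Opalin again had the lowest adjusted p (0.35 ± 0.08, adjusted p = 0.0681), ahead of the lipid enzymes Ugt8a (0.25 ± 0.07, 0.209), Fa2h (0.29 ± 0.09, 0.327) and Gal3st1 (0.29 ± 0.09, 0.331). The means of Opalin were 20.8 ± 3.77 CPM in PS19_p16KO, 16.7 ± 1.70 CPM in PS19, 16.9 ± 0.555 CPM in p16KO and 12.9 ± 1.34 CPM in WT libraries (SD, n = 4 each). Mbp stood at 0.06 ± 0.09 (adjusted p = 0.919), Myrf at 0.04 ± 0.07 (0.938), Olig2 at 0.10 ± 0.06 (0.747), Gpr17 at 0.10 ± 0.08 (0.79) and Pdgfra at -0.05 ± 0.05 (0.877). The unadjusted count was 16 without WT 1, 11 without PS19 2, and 4 without PS19_p16KO 4, PS19 1, PS19 3, WT 2 or WT 3. Opalin was called without PS19_p16KO 3, among 27 genes called in all, against 37 with all libraries.

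The precursor and mature genes were then compared within each library, as the mean log2 CPM of the 24 mature genes minus that of the 4 precursor and newly formed genes. This difference was 0.795 ± 0.079 in PS19_p16KO, 0.715 ± 0.043 in PS19, 0.707 ± 0.051 in p16KO and 0.666 ± 0.064 in WT libraries (SD, n = 4 each). In a pair that was not among the comparisons set up for this difference, every PS19_p16KO library (0.738 to 0.911) lay above every WT library (0.586 to 0.726). This also held with Apod, Il33, Klk6 and Nfasc left out (0.921 to 1.09 in PS19_p16KO against 0.760 to 0.895 in WT), but not with Bcas1 counted as mature (1.17 to 1.35 in PS19_p16KO against 0.894 to 1.25 in WT). The PS19 libraries lay between 0.661 and 0.766 and the WT libraries between 0.586 and 0.726, so these groups overlapped, as did p16KO (0.663 to 0.773) with WT. The 4 genes of the precursor class had unlike values. Relative to the WT mean, Gpr17, Bcas1 and Enpp6 together averaged 0.28 in PS19_p16KO, 0.36 in PS19 and 0.30 in p16KO libraries on the log2 scale, close to the 0.32, 0.33 and 0.28 of the mature genes in the same groups. Pdgfra averaged -0.09 in PS19_p16KO, 0.03 in PS19 and 0.03 in p16KO libraries, so the gap between PS19_p16KO and WT rested in large part on this 1 gene.

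Set against Pdgfra alone, a choice made after seeing these values, the mature genes stood at -0.12 ± 0.13 in PS19_p16KO, -0.23 ± 0.17 in PS19, -0.28 ± 0.06 in p16KO and -0.52 ± 0.28 in WT libraries. The WT libraries spread from -0.83 in WT 2 to -0.20 in WT 1, and so overlapped all 3 other groups. A list of 13 further precursor genes, among them Cspg4 and Vcan, was read beside Pdgfra. None of the 13 passed edgeR's quasi-likelihood test in any comparison, where 0.00% to 1.61% of all tested genes were called. Their median log2 fold change was 0.06 in PS19 against WT, -0.004 in p16KO against WT, -0.09 in PS19_p16KO against PS19 and 0.01 in PS19_p16KO against p16KO. In PS19_p16KO against PS19, 2 of the 13 had a positive log2 fold change, against 50.6% of all tested genes. At an unadjusted p under 0.05, 3 were lower there (5.47% of all tested genes) and 0 higher (3.12%). For 1 of the 13 the groups did not overlap, PS19_p16KO being lower (2.52%), and the smallest adjusted p was 0.0556 in the same test.

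**Figure D4:**
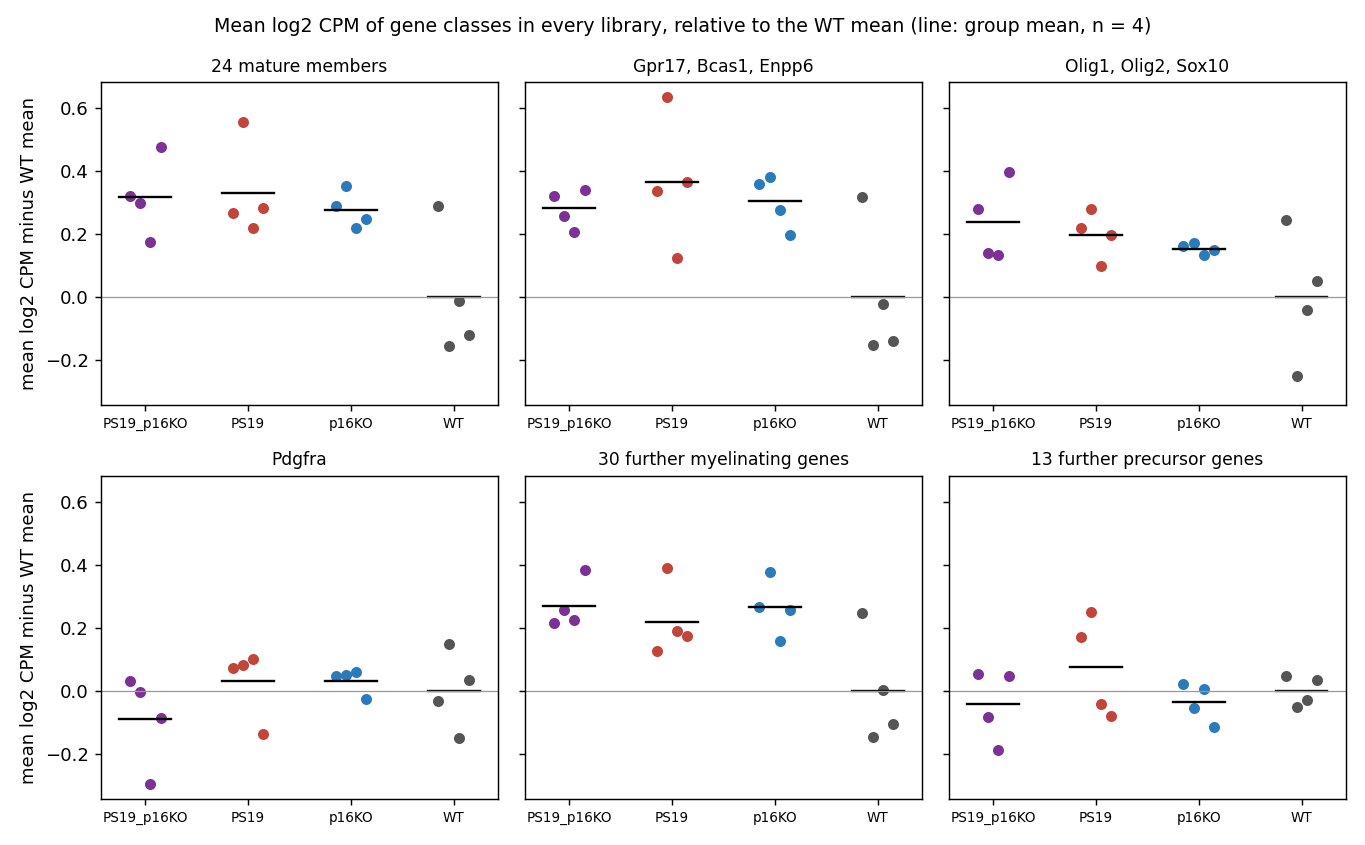
Mean log2 CPM of 6 groups of genes in each library, relative to the WT mean of that group of genes (points, with a line at the group mean, n = 4). The mature genes, the trio Gpr17, Bcas1 and Enpp6, and 30 further myelinating genes show WT 1 with the other groups and WT 2, 3 and 4 lower, whereas Pdgfra and 13 further precursor genes do not.

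The spread among the WT libraries bears on every comparison with WT. WT 1 was the highest WT library for 27 of the 31 members, including 22 of the 24 mature genes and all 3 lineage factors. The exceptions were Pdgfra, highest in WT 2, Bcas1 and Apod, highest in WT 3, and Galc, highest in WT 4. WT 2 lay below all 12 libraries of the other groups for 27 members (11.5% of all tested genes), WT 3 for 21 members (6.49%) and WT 4 for 24 members (9.69%). WT 1 did so for 2 members (5.85%). The median coefficient of variation of the members was 16.3% in WT, against 9.11% over all tested genes, while it was 10.45% against 9.79% in PS19_p16KO, 11.9% against 9.67% in PS19 and 7.79% against 8.55% in p16KO. Together the 31 genes took 0.393%, 0.392%, 0.362% and 0.439% of gene counts in PS19_p16KO, 0.375%, 0.481%, 0.377% and 0.394% in PS19, 0.376%, 0.396%, 0.356% and 0.367% in p16KO, and 0.397%, 0.285%, 0.341% and 0.303% in WT libraries.

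WT 1 was one of the 3 libraries rich in choroid plexus genes. The part of choroid plexus RNA in the level of its myelin genes was not tested, and the other 2 such libraries ranked differently. PS19_p16KO 3 was the highest of its group for 0 and the lowest for 23 of 31 members, and p16KO 4 was the highest of its group for 5 and the lowest for 11. Without WT 1, the number of members called in PS19 against WT was 9 (Sox10, Mog, Mag, Cnp, Cldn11, Tspan2, Sirt2, Myrf and Nkx6-2), with a median log2 fold change of 0.39, and in p16KO against WT it was 1 (Cldn11), with a median of 0.36. Over all genes, 263 were called in PS19 against WT in that fit, against 264 with all libraries, and 2 in p16KO against WT, against 0 with all libraries. Cldn11 had an adjusted p of 0.000158 in PS19 against WT and 0.0219 in p16KO against WT in that fit with edgeR's quasi-likelihood test. Without all 3 libraries rich in choroid plexus genes the counts were 10 and 2 members, of 347 and 7 genes called in all. The other groups had leading libraries as well, since PS19 2 was the highest PS19 library for 25 members and PS19_p16KO 4 the highest of its group for 24.

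**Figure D5:**
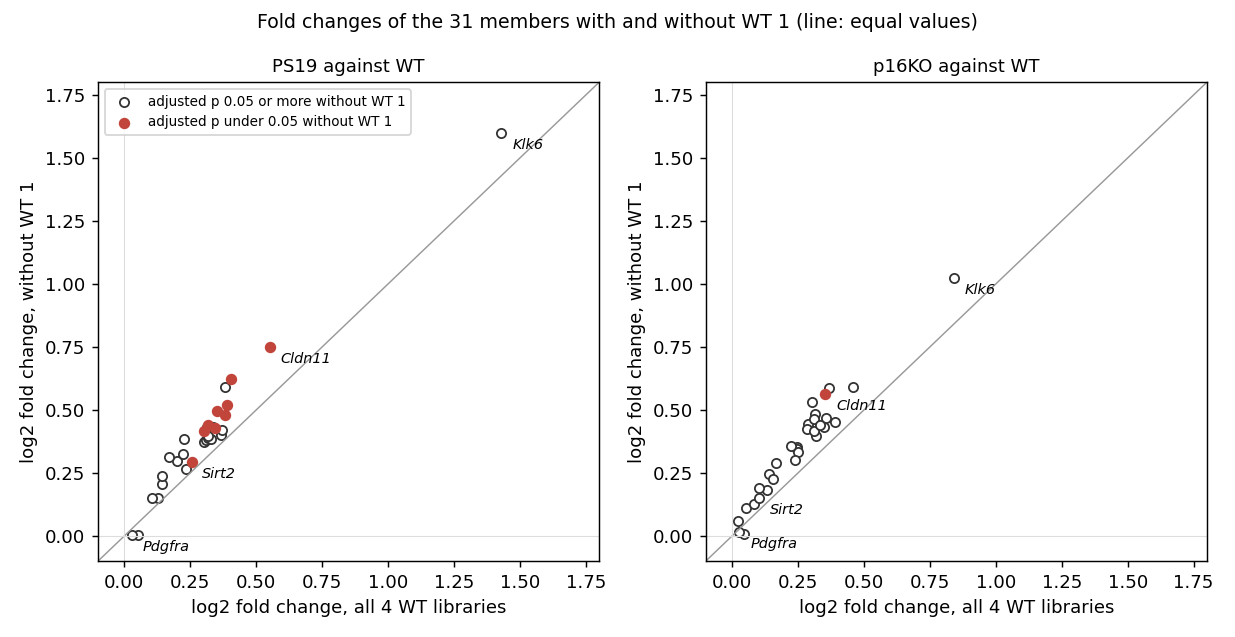
Log2 fold change of each member with WT 1 left out (y axis) against that with all 4 WT libraries (x axis), for PS19 against WT and p16KO against WT. Most points lie above the line of equal values, Pdgfra stays near 0, and filled points mark the 9 and 1 members with an adjusted p under 0.05 without WT 1.

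Genes outside the 31 were read from lists of the same cells. Of 30 further genes of myelinating oligodendrocytes, 2 passed edgeR's quasi-likelihood test in PS19 against WT and both were higher: Ppp1r14a, an inhibitor subunit of myosin phosphatase (log2 fold change 0.54 ± 0.14, adjusted p = 0.0479), and Pllp, a myelin proteolipid (0.46 ± 0.10, adjusted p = 0.0212). Of all tested genes, 1.56% were called higher in PS19 against WT. The list's median log2 fold change was 0.20 in PS19 against WT and 0.21 in p16KO against WT, where none passed. Both Ppp1r14a and Pllp also passed in the average transgene difference (0.50 and 0.35, adjusted p = 0.0237 and 0.0332, same test), where 0.366% of all tested genes were called higher.

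Of 9 genes described in disease-associated oligodendrocytes, 4 rose in PS19 against WT: the complement gene C4b (log2 fold change 1.90 ± 0.27, adjusted p = 0.00305), the tetraspanin Cd9 (1.08 ± 0.22, 0.0237), the antigen-presentation gene B2m (0.86 ± 0.19, 0.0357) and the cytokine-signalling inhibitor Socs3 (1.27 ± 0.31, 0.0425), all in edgeR's quasi-likelihood test. C4b fell in PS19_p16KO against PS19 (-1.62 ± 0.26, adjusted p = 0.0171), the only 1 of the 9 called there. Of all tested genes, 1.56% were called higher in PS19 against WT and 0.776% lower in PS19_p16KO against PS19. Microglia and astrocytes also express C4b, Cd9, B2m and Socs3. The summed level of 12 microglial markers was 435.5 to 935 CPM in PS19 and 308 to 345 CPM in WT libraries, and that of 7 astrocyte markers 5253 to 7622 CPM in PS19 and 4545 to 4707 CPM in WT libraries. In PS19_p16KO libraries the sums were 366 to 406 CPM for microglia and 3863 to 4795 CPM for astrocytes, and in p16KO libraries 332 to 410.5 CPM and 4162 to 4874 CPM. The part of these cells in the levels of the 9 genes, and of Il33 among the members, was not tested.

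The glial sums and the members were also read library by library within PS19. PS19 3 had the lowest microglial sum (435.5 CPM) and the lowest astrocyte sum (5253 CPM) and was the lowest PS19 library for 17 of the 31 members. PS19 1 had the highest sums (935 CPM and 7622 CPM) and was the lowest for 8 members and the highest for 3. PS19 2, with 728 CPM of microglial and 7586 CPM of astrocyte markers, was the highest for 25 members. It also had the lowest sum of 7 neuronal markers, 5377 CPM, against 6228 to 6443 CPM in the other 3 PS19 libraries and 6181 to 6871 CPM in WT libraries, where the highest was WT 2. In PS19 against WT, log2 fold changes ran from -0.01 to 5.08 over the 12 microglial markers and from 0.19 to 1.84 over the 7 astrocyte markers. With markers so unlike, the sums do not measure the amount of these cells alone. The part of glial or neuronal content in the levels of the members was not tested.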

How the data were processed

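Total RNA of the hippocampus was sequenced in bulk by a service provider, and the authors deposited 1 table of raw counts per Ensembl gene for the 16 libraries, with no normalization. The submitters' processing notes name Trimmomatic 0.36, STAR 2.5.2b, featureCounts, Subread 1.5.2, DESeq2 and GRCm38, without a role or order. No source used here gives the annotation release or the strand setting of the counting. Rows of 92 ERCC spike-in controls entered neither library sizes nor tests, and 49326 of the 49671 gene rows were paired with a symbol. Coordinates and exon lengths are from GENCODE on GRCm38.

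From the deposited counts, CPM were computed over gene rows with TMM scaling. Genes passing filterByExpr at a minimum count of 10 (16372) were fitted in edgeR 4.0.16 (R 4.3.3) with robust quasi-likelihood over all 16 libraries and a mean per genotype, and p-values were adjusted by Benjamini-Hochberg over all of them with a threshold of 0.05. SE and 95% intervals come from the same fit. Alternatives used limma 3.58.1 and DESeq2 1.42.0. The script was tested on simulated data. Log2 levels averaged over genes use a prior count of 2. Libraries were grouped by the genotype labels. The members, gene classes and lists were chosen with earlier results of these data known. Fold change, SE and adjusted p are given per comparison for each member called, the 4 with the lowest p, and always Mbp, Opalin, Myrf, Olig2, Pdgfra and Gpr17.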

Additional observations from a re-analysis of the deposited data

Results flagged for a closer look

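Within groups of 4 libraries, a member was singled out when its highest or lowest library stood apart from the other 3 by more of the group's range than Dixon's 95% critical value allows. Of 124 such sets of values, 14 met this, and chance alone gives about 1 in 20, or 6.2. Many members shared the same highest or lowest library, so the sets are not independent and 14 against 6.2 is no test.

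In WT 1 lay 6 of the 14, each as the highest of the WT libraries: Cldn11 at 128 CPM, Mal at 211 CPM, Tspan2 at 118 CPM, Fa2h at 32.3 CPM, Aspa at 10.7 CPM and Myrf at 73.9 CPM. PS19 2 stood above the other PS19 libraries for Mog (43.7 CPM), Mag (178 CPM) and Myrf (80.4 CPM). Pdgfra had 2 low values, at 61.9 CPM in PS19 4 and 66.8 CPM in p16KO 4. Ermn was low in p16KO 3 (53.7 CPM), Gal3st1 was high in p16KO 1 (9.67 CPM), and Klk6 was high in PS19_p16KO 4 (1.04 CPM, where the other 3 libraries lay between 0.794 and 0.810 CPM). The causes were not tested.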

How the results depend on the processing

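The number of members called in PS19 against WT was 1 with edgeR, of 264 genes called in all. It was 2 with no filter on low counts (of 296), with a term for the library-name suffix (of 235) and without robust dispersion (of 273). It was 0 (of 70 genes called) with only the compared groups in the fit, 5 (of 396) with DESeq2, and 0 to 9 (of 124 to 438) with 1 library left out. Without the 3 libraries richest in choroid plexus RNA, an alternative chosen after seeing the data, it was 10 (of 347). In p16KO against WT, 2 members (of 7 genes called) were called without these 3 libraries and 0 to 1 (of 0 to 8) with 1 library left out. The average PS19 difference had 0 members called (of 64 genes called), and 1 with no filter (of 92) or DESeq2 (of 179). It had 7 (of 31) without the 3 libraries and 0 to 2 (of 15 to 206) with 1 library left out. The average p16KO difference had 0 members called (of 37 genes called), and 1 with no filter (of 49), the suffix term (of 20), DESeq2 (of 107) or limma-voom (of 40). It had 3 (of 33) without the 3 libraries, and 0 to 1 (of 10 to 119) with 1 library left out. The cause of these changes in the counts was not tested.

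With Pdgfra alone as the precursor class, the mature minus precursor difference was 0.299 in PS19 against WT (0.048 with all 4 genes), 0.244 in p16KO against WT (0.041) and 0.163 in PS19_p16KO against p16KO (0.088). Of 1620 alternative values for named members, 12 changed sign, all near 0. Mbp in PS19_p16KO against PS19 was 0.024 without the 3 libraries, 0.019 in limma-voom and -0.096 to 0.081 with 1 library left out. With 1 library left out, Pdgfra ranged from -0.019 to 0.081 in PS19 against WT and from -0.019 to 0.081 in p16KO against WT, Olig2 from -0.019 to 0.089 in PS19_p16KO against PS19 and from -0.031 to 0.078 in PS19_p16KO against p16KO, Myrf from -0.009 to 0.101 in PS19_p16KO against p16KO, and the interaction of Opalin from -0.202 to 0.009.

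The deviations of same-numbered libraries of different groups had correlations of -0.388 to 0.223, over 0.1 in 6 of 24 pairs. Differently numbered libraries were not compared, so these values cannot decide whether replicate numbers pair the samples. With the replicate block in edgeR's quasi-likelihood test, 1 member was called in PS19 against WT (Sirt2, adjusted p = 0.0134), of 238 genes called in all. In the other comparisons 0 members were called, of 0 to 134 genes. Klk6, at 9 to 67 counts, is the member most limited by depth.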
